A study of Mus musculus with 6 samples.

Results

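The Notch pathway and the secretory fate factors that it opposes were followed through 10 genes in RNA-seq libraries of colonic intestinal epithelial cells (IECs). The genes were the receptors Notch1, Notch2 and Notch3, the ligands Dll1, Dll4 and Jag1, the targets Hes1 and Hey1, and the secretory factors Atoh1 and Gfi1. They were picked by gene symbol, each symbol was found in the table, and 9 of the 10 had enough counts to be tested among 14650 tested genes. Of the 6 libraries, 3 came from Nsd2 f/f mice (titled WT, genotype NSD2-FF) and 3 came from Nsd2 Vil-KO mice (genotype NSD2-FF-VILCRE). Nsd2 encodes a histone methyltransferase that dimethylates lysine 36 of histone H3. In both groups Nsd2 is flanked by loxP sites, and in Vil-KO mice Cre under the Villin promoter deletes it from the intestinal epithelium, so that non-epithelial cells keep the gene. All mice had received DSS, a sulphated polysaccharide that injures the colonic epithelium. The study's methods give 2% DSS in drinking water for 5 days, littermate controls, an age of 2 months and a C57BL/6J background. They do not give the day on which cells for RNA-seq were taken, and no libraries from untreated mice or from Cre mice without floxed Nsd2 were analysed here.

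Notch receptors are cleaved when a Delta or Jagged ligand on a neighbouring cell binds them. Gamma-secretase then releases the intracellular domain, which joins the DNA-binding protein Rbpj and switches on repressors of the Hes and Hey families. In the intestinal crypt Hes1 represses Atoh1, and progenitors that keep Atoh1 become secretory cells (goblet, enteroendocrine, tuft and deep crypt secretory cells), while those with Notch signalling become absorptive colonocytes. Secretory cells in turn carry Dll1 and Dll4 to their neighbours, and Gfi1 acts below Atoh1 to favour the goblet over the enteroendocrine fate.

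Atoh1, Dll1 and Gfi1 were picked for a view of regulatory sequence after their values had been seen. The 250 bases before their RefSeq start sites (build GRCm38.p6) are printed 5′ to 3′ on the strand of the gene. They cover chr6:64728875-64729124 (plus strand) for Atoh1, the second listed start of Dll1 at chr17:15376933-15377182 (minus strand) and the first listed start of Gfi1 at chr5:107725806-107726055 (minus strand). Capitals mark the class C site CACGCG or CGCGTG and the E-box CAGCTG.
Atoh1: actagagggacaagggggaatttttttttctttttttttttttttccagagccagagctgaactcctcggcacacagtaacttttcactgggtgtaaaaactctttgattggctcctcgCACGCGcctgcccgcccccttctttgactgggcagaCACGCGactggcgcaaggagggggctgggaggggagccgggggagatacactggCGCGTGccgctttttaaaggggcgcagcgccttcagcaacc
Dll1: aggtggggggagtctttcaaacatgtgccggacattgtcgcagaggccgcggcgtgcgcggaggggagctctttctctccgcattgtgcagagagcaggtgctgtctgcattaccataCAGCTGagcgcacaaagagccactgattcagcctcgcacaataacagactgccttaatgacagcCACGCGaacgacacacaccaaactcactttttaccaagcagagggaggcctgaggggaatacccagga
Gfi1: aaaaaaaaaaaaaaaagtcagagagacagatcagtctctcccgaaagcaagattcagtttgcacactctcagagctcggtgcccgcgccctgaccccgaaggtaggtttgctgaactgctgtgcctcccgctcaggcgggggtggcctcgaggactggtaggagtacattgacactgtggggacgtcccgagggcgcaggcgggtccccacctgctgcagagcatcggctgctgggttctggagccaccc
Class C sites, like N-boxes, are letters that Hes repressors are known to bind, and E-boxes with these letters are bound by factors such as Atoh1. Start windows were found for 8 of the 10 genes, 10 windows in all. None was found for Hes1 and Hey1, so these Notch targets were not searched for any motif. Of these, 5 held a class C site, beside 7.6% of 32841 mouse start windows of the same length. The shares over all windows were not matched for base composition, and G and C made up 55.6% to 72.0% of the 10 windows. Dll1 and Gfi1 each gave 2 of the 10 windows. The Atoh1 window held 3, that of Jag1 held 2, and those of Notch2, Dll4 and the second start of Dll1 held 1 each. The E-box CAGCTG was present in 2 of the 10 windows (Jag1 and the second start of Dll1) and in 13.0% of all windows. The core letters bound by Rbpj, TGGGAA or TTCCCA, were in 0 of 10 and in 21.6% of all windows, and the N-box CACNAG or CTNGTG was in 4 of 10 and in 36.7%. Both strands were searched, and motifs that share letters at their ends can overlap each other. Neither window of Gfi1 held any of the 4 motifs, and nor did the window at the first listed start of Dll1. A match of letters is a description of these windows and does not show a bound site.

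The libraries held between 15439123 and 20350539 counts (median 18209316), so that 3 counts corresponded to 0.146 to 0.242 CPM (counts scaled to a common library size with TMM factors). Nothing in the labels ties each library to an animal of its own, and p-values measure the spread between these libraries. Nsd2 itself was lower in each Vil-KO library (24.2, 10.4 and 20.8 CPM) than in each f/f library (47.9, 51.2 and 24.6 CPM), although f/f replicate 3 was close to Vil-KO replicate 1. f/f replicate 3 and Vil-KO replicate 2 stood apart from the rest. Their mean Spearman correlations with the other libraries over genes were 0.937 and 0.927, against 0.959 to 0.964 for the other 4. The transcript Xist, which is made from an inactive X chromosome, had 4296 and 3684 counts in these libraries and at most 5 in each of the other 4. f/f replicate 3 also had 19.6% of its counts on mitochondrial genes, against 5.51% to 9.13% in the others. The labels do not give the sex of the mice. Results were therefore also computed in the 4 libraries without Xist (f/f replicates 1 and 2, Vil-KO replicates 1 and 3) and with Xist, present or absent, as a covariate. In isolated cells in bulk, fewer cells of a type and less RNA per cell cannot be told apart. The summed CPM of 8 epithelial genes (Epcam, keratins and others) lay between 11457 and 17438 in all 6 libraries.

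The study's methods give an adjusted p below 0.05 for selecting genes. A gene was called here when its fold change exceeded 1.2 at an unadjusted p below 0.05, the criterion named in the study's results. Of the 9 tested genes of the pathway, 0 met it, beside 3.29% of all tested genes (1.65% higher and 1.65% lower in Vil-KO). By edgeR's quasi-likelihood test their adjusted p lay between 0.992 and 0.998, and 0.00% of all genes had an adjusted p below 0.05 (482 genes had an unadjusted p below 0.05). The log2 fold change, Vil-KO minus f/f, was below 0 for 6 and above 0 for 3 of the 9, with a median of −0.18, beside 49.9% below 0 and a median of 0.0012 over all genes. The genes below 0 with the widest distance from it were Dll1, Gfi1 and Atoh1. Atoh1 was the 1 tested gene of the 9 whose libraries did not overlap between genotypes, lower in Vil-KO, beside 4.70% of all genes lower without overlap (9.90% in either direction). Hey1, the gene not tested, did not overlap either. In the 4 libraries without Xist, Dll1, Atoh1 and Gfi1 met the criterion, each lower in Vil-KO, which is 3 of 9 beside 5.36% of all genes called lower in those libraries.

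**Figure D1:**
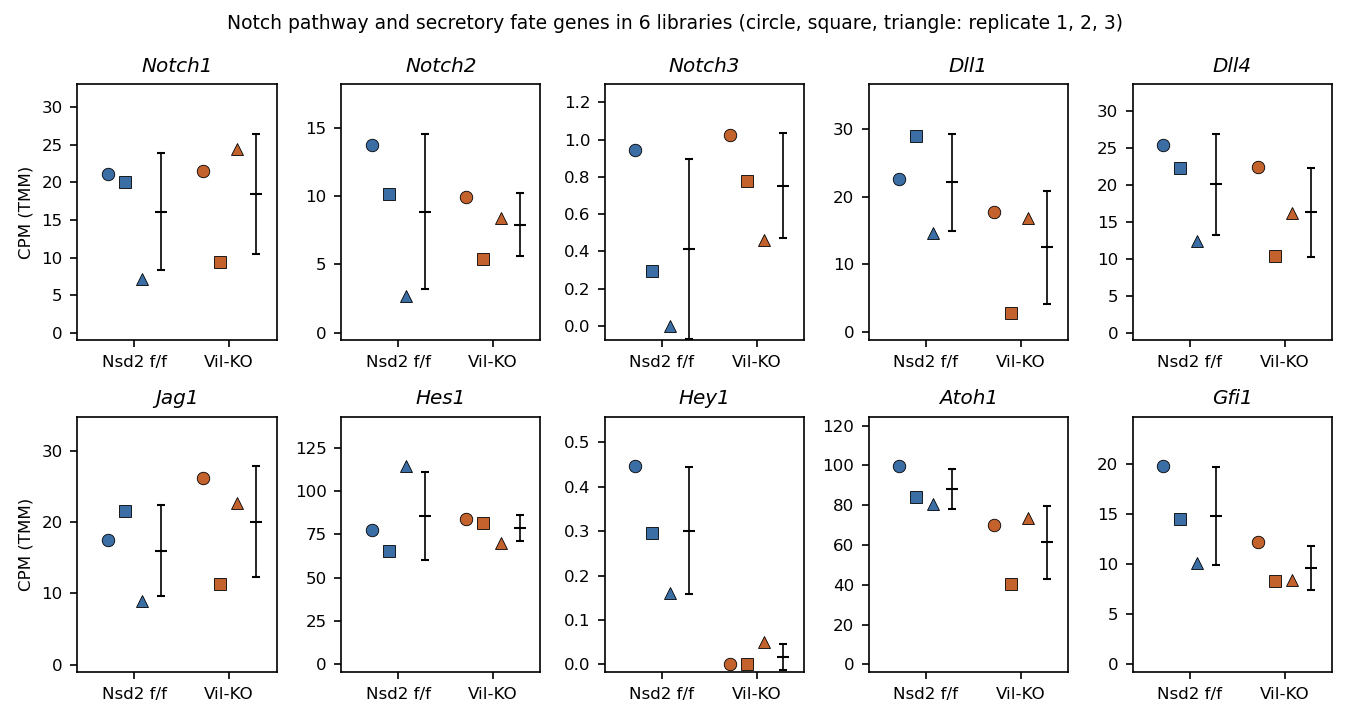
Each panel plots 1 gene, with CPM (TMM-scaled) on a linear vertical axis and the genotype on the horizontal axis. Points are libraries, and the bar beside them is the mean ± SD over 3 libraries. Atoh1 lay at 80.8 CPM or above in f/f and at 73.5 CPM or below in Vil-KO, while the points of the other tested genes overlapped between genotypes.

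Notch1 and Notch2 were detected in every library, Notch3 was near the floor, and the genotypes overlapped for all 3 receptors. Notch1 (ENSMUSG00000026923, chromosome 2, 26457903 to 26516663 on the minus strand of GRCm38), the main receptor of crypt cells together with Notch2, had 21.2, 20.03 and 7.11 CPM in f/f replicates 1 to 3 and 21.5, 9.43 and 24.4 CPM in Vil-KO. The low libraries were f/f replicate 3 and Vil-KO replicate 2, 1 from each genotype, and the groups overlapped. Its log2 fold change was 0.19 ± 0.50 (SE, 95% confidence interval −0.98 to 1.36).

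Notch2 (ENSMUSG00000027878, chromosome 3, 98013527 to 98150361, plus strand) had 13.8, 10.2 and 2.67 CPM in f/f and 9.95, 5.38 and 8.38 CPM in Vil-KO. The same 2 libraries were the lowest, and the values overlapped. Its log2 fold change of −0.18 ± 0.56 (SE, interval −1.50 to 1.15) changed sign in 4 of 17 other settings (of scaling, filter, model, covariate or libraries used), so that no direction can be given.

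Notch3 (ENSMUSG00000038146, chromosome 17, 32120820 to 32166852, minus strand), a receptor known mainly from smooth muscle and pericytes around vessels, had 19, 5 and 0 counts in f/f and 21, 14 and 9 counts in Vil-KO. These counts are near the floor, and the log2 fold change of 0.71 ± 0.84 (SE, interval −1.27 to 2.68) leaves both directions possible. Without f/f replicate 1 it was 2.13 and without f/f replicate 3 it was 0.25. The summed CPM of 9 markers of mural and smooth muscle cells was 18.4, 29.6 and 21.3 in f/f and 20.9, 6.44 and 14.6 in Vil-KO. None of the 9 was at 0 in all libraries, 7 were tested, 0 met the criterion, and their part in the Notch3 counts was not tested.

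The ligands did not differ beyond the spread between libraries, and Dll1 had the widest spread. Dll1 (ENSMUSG00000014773, chromosome 17, 15367354 to 15376872, minus strand), a Delta-like ligand of early secretory progenitors, had 22.6, 29.0 and 14.7 CPM in f/f and 17.8, 2.88 and 16.9 CPM in Vil-KO. Vil-KO replicate 2, with 52 counts, was far below every other library, and f/f replicate 3 lay below both other Vil-KO libraries. In log2 fold change Dll1 stood at −0.82 ± 0.62 (SE, interval −2.27 to 0.64), and the exact two-sided permutation test over the 6 libraries gave p = 0.3, where 0.1 is the smallest possible.

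The difference in Dll1 lay on the same side in both kinds of library. Between the pair with Xist, Dll1 was at 14.7 CPM in f/f and 2.88 CPM in Vil-KO, and among those without Xist it was at 22.6 and 29.0 CPM in f/f and 17.8 and 16.9 CPM in Vil-KO. The 4 libraries without Xist gave a log2 fold change of −0.56 ± 0.17 (SE, adjusted p = 0.375). With Xist as a covariate Dll1 met the criterion too, at −1.10 ± 0.38 (SE, adjusted p = 0.627), when 7.82% of all genes were called. Leaving out Vil-KO replicate 2 from the 6 gave −0.35, so the value of Dll1 rested in large part on that library.

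Dll4 (ENSMUSG00000027314, chromosome 2, 119325784 to 119335962, plus strand), the other Delta-like ligand of the crypt, had 25.5, 22.3 and 12.4 CPM in f/f and 22.4, 10.3 and 16.1 CPM in Vil-KO. Its log2 fold change was −0.31 ± 0.37 (SE, interval −1.19 to 0.58). Values of the genotypes overlapped, with f/f replicate 3 and Vil-KO replicate 2 again the lowest.

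Jag1 (ENSMUSG00000027276, chromosome 2, 137081456 to 137116644, minus strand), a Jagged-type ligand, had 17.5, 21.5 and 8.97 CPM in f/f and 26.1, 11.4 and 22.7 CPM in Vil-KO. The values overlapped, with a log2 fold change of 0.32 ± 0.42 (SE, interval −0.66 to 1.31). Across the receptors and ligands, f/f replicate 3 and Vil-KO replicate 2 were the lowest pair for 5 of the 10 genes (Notch1, Notch2, Dll1, Dll4 and Jag1). They were also the lowest pair for 5 of 8 markers of crypt stem cells, 7 of 8 of fibroblasts, 4 of 9 of mural and smooth muscle cells and 5 of 12 of leukocytes. For other markers this held for 2 of 10 goblet, 1 of 5 deep crypt secretory, 1 of 10 enteroendocrine and 1 of 8 tuft genes. It held for 0 of 10 absorptive, 1 of 8 epithelial and 2 of 10 endothelial markers. Among other Notch pathway genes it held for 12 of 49, and among further secretory factors for 2 of 18. The share over all genes was not computed.

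The summed CPM of those stem cell markers moved with these libraries. It was 429, 400 and 214 in f/f and 421, 108 and 400 in Vil-KO. Lgr5, the receptor that marks crypt base stem cells, had 263, 252 and 88 counts in f/f and 258, 2 and 258 counts in Vil-KO. The stem cell markers of highest CPM were Lrig1 and Rgmb. Their log2 fold changes were −0.0054 ± 0.42 and −0.12 ± 0.51 (SE). None of the 8 was at 0 in every library, 6 were tested, 0 met the criterion, and all 6 had a log2 fold change below 0 (median −0.42). The part of stem cells and of these other cell types in the levels of receptors and ligands was not tested.

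Of the targets, Hes1 was high in every library and Hey1 was close to the floor. Hes1 (ENSMUSG00000022528, chromosome 16, 30064384 to 30067796, plus strand), the repressor that opposes Atoh1, had 77.6, 65.2 and 114.3 CPM in f/f and 84.0, 81.8 and 69.9 CPM in Vil-KO. The 3 Vil-KO values lay within the range of the f/f values. The log2 fold change of −0.12 ± 0.24 (SE, interval −0.69 to 0.44) turned to 0.12 in the 4 libraries without Xist and to 0.14 without f/f replicate 3, and that library alone held the highest level. Thus no direction could be given for Hes1, and the interval covers changes of about the size seen for Atoh1.

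Hey1 (ENSMUSG00000040289, chromosome 3, 8663359 to 8667256, minus strand), a related Notch target known best from endothelium, had 9, 5 and 2 counts in f/f and 0, 0 and 1 counts in Vil-KO. The ratio of summed counts, Vil-KO over f/f and scaled for depth, was 0.0532 (1 count against 16). Its 95% interval of 0.00127 to 0.343 covers counting error only and not the spread between libraries. Hey1 did not pass the filter on low counts and has no test in the comparison. With no filter it met the criterion (adjusted p = 0.861), when 3.27% of genes were called. The exact two-sided permutation test gave p = 0.1, the smallest possible. The 10 endothelial markers summed to 8.32, 6.68 and 5.74 CPM in f/f and 7.46, 7.05 and 8.33 CPM in Vil-KO. Of these, 3 were tested, of which Vwf met the criterion upward and Pecam1 downward, and the defining marker Cdh5 had at most 6 counts in any library.

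The secretory factors had lower means in Vil-KO and did not meet the criterion by edgeR without a covariate over the 6 libraries. Atoh1 (ENSMUSG00000073043, chromosome 6, 64729125 to 64731245, plus strand), the factor that commits progenitors to a secretory fate and whose start window carries the 3 class C sites printed above, had 99.6, 84.2 and 80.8 CPM in f/f and 70.3, 40.3 and 73.5 CPM in Vil-KO. Every f/f library lay above every Vil-KO library. The means were 88.2 ± 10.01 and 61.4 ± 18.3 CPM (SD, n = 3 each).

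For Atoh1 the log2 fold change was −0.52 ± 0.26 (SE, interval −1.13 to 0.08), and the exact two-sided permutation test gave p = 0.1, the smallest possible. Atoh1 met the criterion, at −0.34 ± 0.12, in the 4 libraries without Xist (SE, adjusted p = 0.410) and, at −0.57 ± 0.17, with Xist as a covariate (SE, adjusted p = 0.627). With limma-voom and quality weights it met the criterion at −0.35 ± 0.14 (SE, adjusted p = 0.487), when 9.83% of all genes were called. Without Vil-KO replicate 2, its lowest library, it was −0.29. Atoh1 was below 0 in all 17 other settings.

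Gfi1 (ENSMUSG00000029275, chromosome 5, 107716657 to 107726036, minus strand), the zinc finger repressor below Atoh1, had 19.8, 14.6 and 10.1 CPM in f/f and 12.2, 8.38 and 8.48 CPM in Vil-KO. The groups overlapped through f/f replicate 3, which lay below Vil-KO replicate 1. Over the 6 libraries its log2 fold change was −0.62 ± 0.32 (SE, interval −1.38 to 0.15), with an exact two-sided permutation p of 0.2. Gfi1 met the criterion, at −0.72 ± 0.25, in the 4 libraries without Xist (SE, adjusted p = 0.402) and, at −0.82 ± 0.30, without f/f replicate 3 (SE, adjusted p = 0.9998), when 3.38% of all genes were called. It also did so at −0.72 ± 0.24 with limma-voom and quality weights (SE, adjusted p = 0.460). Without f/f replicate 1, the highest library, it was −0.35.

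**Figure D2:**
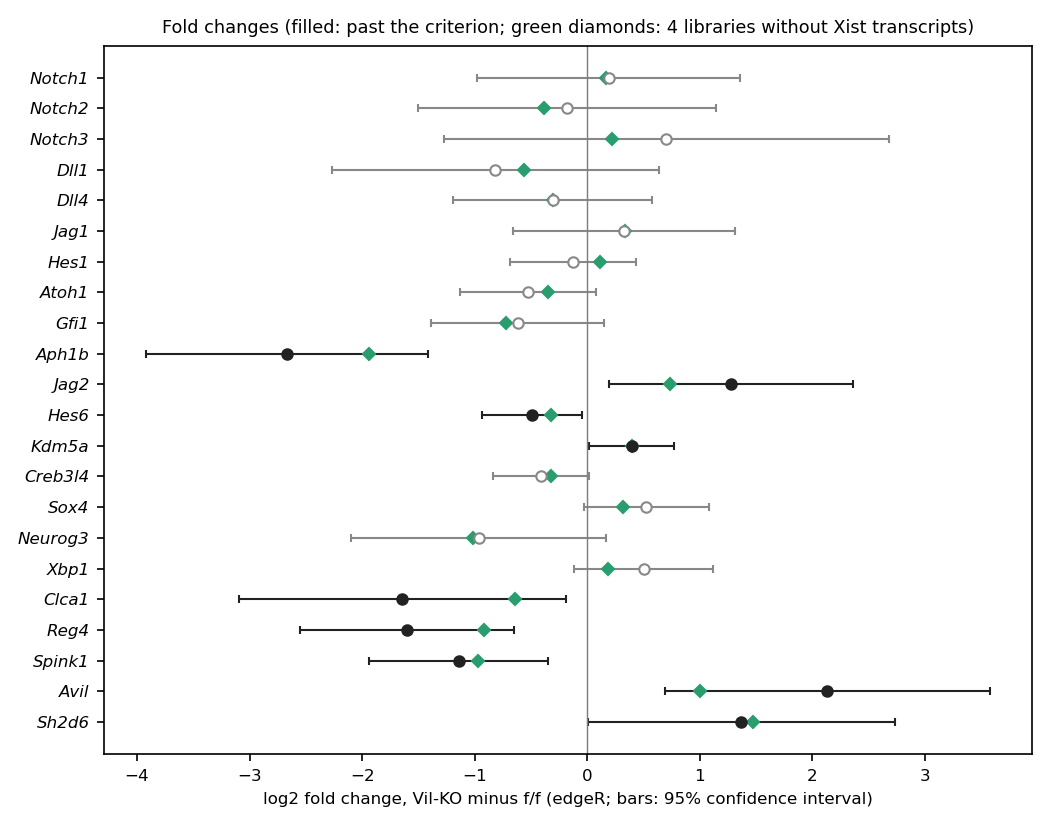
The horizontal axis gives the log2 fold change, Vil-KO minus f/f, of the pathway genes and of further genes named in the text, with 95% confidence intervals from edgeR over 6 libraries. Filled circles met the criterion, open circles did not, and green diamonds are the values in the 4 libraries without Xist. The intervals of all 9 tested pathway genes at the top reached across 0, and those of Aph1b (−2.67) and Reg4 (−1.60) did not.

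The balance of Hes1 against Atoh1 was computed within each library as log2 Hes1 minus log2 Atoh1, on CPM to which 2 prior counts were added. The difference was −0.36, −0.37 and 0.50 in f/f and 0.26, 1.02 and −0.07 in Vil-KO. The means were −0.08 ± 0.50 and 0.40 ± 0.56 (SD, n = 3 each). Both highest values came from the libraries with Xist, 1 of each genotype, and the groups overlapped.

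Per length of exon, the genes fell into tiers of level. Over the 6 libraries, Hes1 averaged 40.3 ± 8.49 and Atoh1 35.3 ± 9.31 CPM per kb (SD), with overlapping ranges. Both lay above every library of the next genes, which were Dll4 at 4.72 ± 1.59, Dll1 at 4.10 ± 2.06, Gfi1 at 3.85 ± 1.38 and Jag1 at 3.09 ± 1.15 CPM per kb. Notch1 followed at 1.21 ± 0.50 and Notch2 at 0.778 ± 0.362 CPM per kb. From Dll4 to Notch2 the ranges of neighbours in this order overlapped. Every library of Notch2 lay above every library of Notch3, which averaged 0.0721 CPM per kb and overlapped with Hey1 at 0.0487 CPM per kb. Exons of the receptors and ligands overlap annotated transcripts on the opposite strand over 1482 bases for Notch1, 488 for Notch3, 867 for Dll1 and 214 for Dll4, and over 101 bases for Gfi1, and those of Notch2 overlap Gm42820 on the same strand over 541 bases. Whether counting used strand is not stated, so reads in those stretches cannot be assigned.

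**Figure D3:**
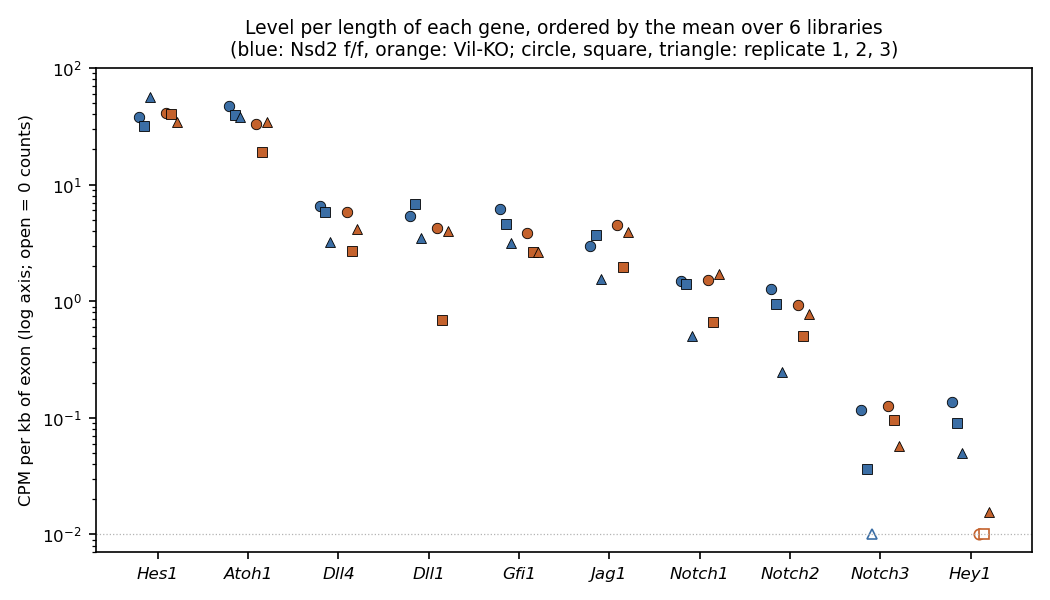
The vertical log axis gives CPM per kb of exon in each library for the 10 genes, ordered by their mean over 6 libraries (blue f/f, orange Vil-KO). Open symbols at the dotted line are libraries with 0 counts. Hes1 and Atoh1, at 40.3 and 35.3 CPM per kb on average, stood above all ligands and receptors, and the low orange square in Dll1 is Vil-KO replicate 2.

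The genes whose pattern over the 6 libraries was most like that of Hes1 were sought by the root mean square difference of centred log2 CPM among 13340 genes. They were Bloc1s3 (0.039), Cblb (0.076), Rmnd5a (0.079), Foxn3 (0.081) and Zfyve1 (0.087). For Atoh1 they were Itpr2 (0.061), 4933434E20Rik (0.082), Zfp974 (0.085), Wdyhv1 (0.092) and Gm14305 (0.103). The 6 libraries include Vil-KO replicate 2 and f/f replicate 3, which stood apart, and the likeness is given as a description.

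The rest of the Notch pathway was examined in a list of 49 genes (other receptors and ligands, Rbpj and Maml cofactors, glycosyltransferases, proteases, Numb and Deltex genes, other Hes and Hey genes, and corepressors and coactivators). Of these 41 were tested, 2 rose and 2 fell by the criterion (9.76%, beside 3.29% of all genes), and 37 did not meet it. The median log2 fold change was 0.05. The groups did not overlap for 5 higher and 3 lower genes of the 41, beside 5.21% higher and 4.70% lower of all genes.

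Aph1b, a subunit of the gamma-secretase complex that cleaves Notch among other substrates, fell most. It had 7.04, 5.26 and 12.0 CPM in f/f and 1.46, 0.555 and 1.74 CPM in Vil-KO. The lowest f/f library was above 3 times the highest Vil-KO library. In log2 fold change it stood at −2.67 ± 0.53 (SE, interval −3.92 to −1.42, adjusted p = 0.992), and Aph1b met the criterion in all 17 other settings. Its paralogs were Aph1a, with 122, 125 and 127 CPM in f/f and 138, 170 and 134 CPM in Vil-KO, and Aph1c, at 0.694 CPM or less in each library. Aph1a had a log2 fold change of 0.24 ± 0.17 (SE, interval −0.17 to 0.65), and reads shared between Aph1b and Aph1c cannot be told apart from the counts.

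Jag2, a Jagged ligand, rose from 4.11, 2.42 and 1.62 CPM in f/f to 6.34, 9.21 and 4.60 CPM in Vil-KO, without overlap. Its rise was 1.28 ± 0.46 on the log2 scale (SE, interval 0.19 to 2.36, adjusted p = 0.992). The call was lost in the 4 libraries without Xist (0.73) and without f/f replicate 2 (1.196), f/f replicate 3 (1.03), Vil-KO replicate 1 (1.32) or Vil-KO replicate 2 (0.98).

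Hes6, a Hes family protein that lacks the Notch response of Hes1 and marks secretory progenitors, fell. It had 108.0, 99.7 and 108.9 CPM in f/f and 87.1, 60.1 and 78.1 CPM in Vil-KO, with no overlap. Its log2 fold change was −0.49 ± 0.19 (SE, interval −0.94 to −0.05, adjusted p = 0.992) and −0.32 in the 4 libraries without Xist. The criterion was lost in 7 of 17 other settings, among them leaving out f/f replicate 1, 2 or 3 (−0.47, −0.53 and −0.47) or Vil-KO replicate 3 (−0.52).

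Kdm5a, a histone demethylase that acts as a corepressor with Rbpj, rose. It had 36.5, 32.2 and 36.2 CPM in f/f and 42.9, 47.9 and 47.3 CPM in Vil-KO. The log2 fold change was 0.40 ± 0.16 (SE, interval 0.02 to 0.77, adjusted p = 0.992), and 8 of 17 other settings lost the call, among them leaving out f/f replicate 1 (0.43), 2 (0.34) or 3 (0.42) and Vil-KO replicate 1 (0.45) or 3 (0.38). Exons of Kdm5a overlap Ccdc77 on the opposite strand over 251 bases.

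Rbpj itself had 27.6, 26.0 and 24.4 CPM in f/f and 23.2, 28.8 and 25.9 CPM in Vil-KO, a log2 fold change of −0.0025 ± 0.18 (SE, interval −0.43 to 0.42). Like Hey1, the targets Hes5, Hey2 and Heyl had too few counts for a test. Nrarp, a feedback inhibitor that Notch induces, had 3.32, 3.01 and 2.91 CPM in f/f and 5.07, 5.603 and 2.66 CPM in Vil-KO, with overlap and a log2 fold change of 0.52 ± 0.39 (SE, interval −0.40 to 1.45). Of the 2582 exon bases of Nrarp, 2051 overlap Gm38287 on the opposite strand, so its counts there cannot be assigned to either gene with strand use unknown. Rbpj and Nrarp were chosen for their place in the pathway after their values had been seen.

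Further factors of the secretory lineages were listed without Atoh1 and Gfi1 (18 genes, 17 tested). Of these 0 met the criterion, beside 3.29% of all genes, with 6 above and 11 below 0 and a median log2 fold change of −0.07. The smallest p belonged to Creb3l4, a transcription factor of the secretory apparatus, which had 50.1, 41.9 and 43.8 CPM in f/f and 36.7, 29.1 and 36.4 CPM in Vil-KO. The groups did not overlap, with a log2 fold change of −0.41 ± 0.18 (SE, interval −0.83 to 0.01). Myb, with 75.7, 78.5 and 71.2 CPM in f/f and 69.1, 6.77 and 55.5 CPM in Vil-KO, was the other factor without overlap, and its log2 fold change of −0.78 ± 0.68 (SE, interval −2.39 to 0.84) had a wide interval, with Vil-KO replicate 2 far below the other libraries.

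Sox4, a factor linked to the tuft and enteroendocrine fates, had 47.2, 36.2 and 30.4 CPM in f/f and 60.5, 60.7 and 42.8 CPM in Vil-KO, with a log2 fold change of 0.53 ± 0.24 (SE, interval −0.03 to 1.08). Neurog3, which starts the enteroendocrine programme, was at 1.59, 1.36 and 0.808 CPM in f/f and 0.585, 0.499 and 0.868 CPM in Vil-KO, a log2 fold change of −0.96 ± 0.48 (SE, interval −2.09 to 0.17). Xbp1, the factor of the unfolded protein response that secretory cells need, had 370, 344 and 262 CPM in f/f and 346, 574 and 463 CPM in Vil-KO, a log2 fold change of 0.50 ± 0.26 (SE, interval −0.11 to 1.12). Each of these 3 overlapped between genotypes. Of the 4795 exon bases of Sox4, 2616 overlap Gm26735 on the opposite strand, and such overlaps cover 273 bases of Neurog3 and 559 of Myb, where reads cannot be assigned.

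In the 4 libraries without Xist, 5 of these 17 factors met the criterion, when 11.0% of all genes did. Spdef (−0.48), Foxa3 (−0.41), Creb3l1 (−0.36) and Creb3l4 (−0.32), which belong to the goblet programme or its secretory machinery, fell in log2 fold change, and Pou2f3 (2.14), the master factor of tuft cells, rose from low counts. Adjusted p were between 0.374 and 0.443 by edgeR. In the 6 libraries Spdef had 128, 101 and 57.1 CPM in f/f and 90.6, 81.8 and 72.0 CPM in Vil-KO, and overlapped, with f/f replicate 3 the lowest library. Pou2f3, at 0.198, 0.177 and 0.727 CPM in f/f and 1.12, 0.222 and 0.562 CPM in Vil-KO, overlapped too.

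The products of the secretory cells were read from marker lists. Among 10 goblet cell markers 1 fell by the criterion, beside 1.65% of all genes, and 9 did not meet it, 9 of 10 had a log2 fold change below 0, and the median was −0.54. The most abundant was Muc2, the main mucin, with 6857, 5694 and 3512 CPM in f/f and 5548, 2246 and 4310 CPM in Vil-KO (−0.41 ± 0.44, SE, interval −1.45 to 0.63). Agr2, a disulphide isomerase that folds mucin, had 2553, 2273 and 1666 CPM in f/f and 1521, 2734 and 1628 CPM in Vil-KO (−0.14 ± 0.34, SE). The gene that fell was Clca1, a secreted protease of the mucus layer, with 886, 958 and 2281 CPM in f/f and 515, 148 and 658 CPM in Vil-KO. The groups did not overlap, with a log2 fold change of −1.64 ± 0.62 (SE, interval −3.10 to −0.19). The call was lost without f/f replicate 3 (−1.06), without Vil-KO replicate 1 (−1.77) and with Xist as a covariate (−1.65). Clca1 kept the call in the 4 libraries without Xist, at a smaller −0.64 ± 0.14 (SE). In the 4 libraries without Xist 7 of the 10 goblet markers fell, beside 5.36% of all genes, among them Tff3 (−0.72), Spink4 (−0.81) and Zg16 (−0.76), with a median of −0.62 over the list.

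The deep crypt secretory markers, which belong to the colonic counterpart of Paneth cells, included 4 tested genes, of which 2 fell, beside 1.65% of all genes. Reg4, a secreted lectin that marks these cells, had 358, 381 and 741 CPM in f/f and 177, 98.4 and 213 CPM in Vil-KO, so that every Vil-KO library was below every f/f library. The log2 fold change was −1.60 ± 0.40 (SE, interval −2.55 to −0.65, adjusted p = 0.992). Spink1, a secreted trypsin inhibitor, had 241, 277 and 498 CPM in f/f and 131, 197 and 132 CPM in Vil-KO, without overlap (−1.14 ± 0.34, SE, interval −1.93 to −0.35).

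Reg4 and Spink1 met the criterion in all 17 other settings, and in the 4 libraries without Xist their log2 fold changes were −0.91 and −0.97. Without f/f replicate 3, their highest library, Spink1 was at −0.75 and Reg4 at −1.18. The other tested genes were Cd177, with 1032, 912 and 925 CPM in f/f and 916, 286 and 955 CPM in Vil-KO, and Kit, and neither met the criterion. The median of the 4 genes was −0.78.

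Tuft cell markers gave 2 genes that rose among 7 tested, beside 1.65% of all genes, with a median of 0.31. Avil, an actin-binding protein of the tuft cell brush, had 3.82, 4.31 and 2.34 CPM in f/f and 7.995, 30.4 and 8.12 CPM in Vil-KO, without overlap. Its log2 fold change was 2.13 ± 0.61 (SE, interval 0.69 to 3.58), it met the criterion in all 17 other settings, and without Vil-KO replicate 2 it was 1.19. Sh2d6, at 1.39, 0.945 and 3.07 CPM in f/f and 3.71, 7.10 and 2.81 CPM in Vil-KO, overlapped (1.37 ± 0.58, SE, interval 0.01 to 2.73) and lost its call in 6 of 17 other settings. These included leaving out f/f replicate 1 (1.21) or 2 (1.06) and Vil-KO replicate 1 (1.49) or 2 (0.91). Il25, the defining cytokine of tuft cells, had no counts in 5 of the libraries.

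Of 10 enteroendocrine markers 0 met the criterion (median −0.10), and of 10 absorptive colonocyte markers 0 did (median −0.41). In the 4 libraries without Xist, 3 absorptive markers were called higher and 1 lower (median 0.29), when 11.0% of all genes were called. Of the enteroendocrine markers, 0 were called higher and 1 lower there (median −0.11). The hormone Pyy, with 47.9, 58.7 and 92.7 CPM in f/f and 38.2, 47.3 and 44.6 CPM in Vil-KO, was the 1 enteroendocrine gene without overlap (−0.61 ± 0.27, SE, interval −1.24 to 0.02). The absorptive markers summed to 3318, 3586 and 8758 CPM in f/f and 4459, 3155 and 4070 CPM in Vil-KO, and their high library was f/f replicate 3, in which Hes1 was highest too. Clca1, Spink1, Avil, Sh2d6, Pyy and the factors named in the 4 libraries without Xist, like Myb, were singled out after their values had been seen.

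**Figure D4:**
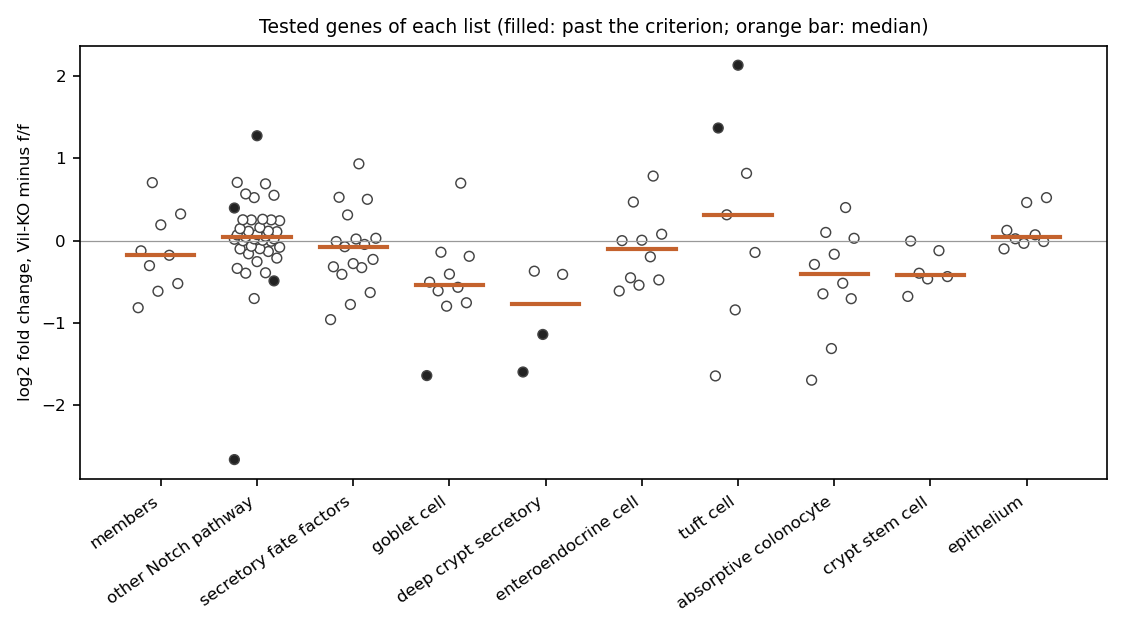
Each circle is 1 tested gene of a list, the vertical axis gives its log2 fold change, Vil-KO minus f/f, over 6 libraries, filled circles met the criterion, and orange bars are medians. The pathway genes (members) had a median of −0.18 with 0 filled circles, and the deep crypt secretory list had a median of −0.78 with 2.

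Markers of other cell types also varied between libraries. Fibroblast markers summed to 274, 63.8 and 6.62 CPM in f/f and 75.8, 5.21 and 17.9 CPM in Vil-KO. Leukocyte markers summed to 764, 157 and 29.7 CPM in f/f and 173, 1000 and 68.2 CPM in Vil-KO. The granulocyte genes S100a8 and S100a9 had 197.4 and 357.3 CPM in f/f replicate 1. In Vil-KO replicate 2 the leukocyte sum was made up mostly of the same genes (573.9 and 404.9 CPM). Ptprc, the marker of all leukocytes, was low there (5.71 CPM) and about equally low in f/f replicate 3 (5.74 CPM). None of the 8 fibroblast and 12 leukocyte markers was at 0 in every library, and 0 of them met the criterion. f/f replicate 1 had the highest fibroblast sum and also the most Atoh1, Gfi1 and Dll4, and the part of other cell types in these levels was not tested.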

How the data were processed

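RNA-seq was performed on colonic IECs of DSS-treated mice, 3 Nsd2 f/f and 3 Nsd2 Vil-KO libraries, grouped by their labels. The deposited table held unnormalised, unfiltered integer counts for each Ensembl gene. Per the methods, polyA RNA was sequenced in paired ends, trimmed with Cutadapt and Trimmomatic and aligned to GRCm38 (mm10 in the submitters' processing notes) with HISAT2. Which program counted the reads, and whether by strand, is not given in the sources used here, and the labels and methods name different library kits. The authors' own FPKM comparison was not used.

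Counts were analysed with edgeR 4.0.16 in R 4.3.3 (TMM factors, filterByExpr, robust quasi-likelihood test without covariates, Benjamini-Hochberg adjustment over 14650 of 55487 genes). A gene met the criterion with a fold change above 1.2 and p below 0.05. Exact permutation tests over 10 splits were two-sided on mean log2 CPM. Coordinates and exon lengths came from GENCODE vM21 (GRCm38), and start windows from RefSeq (GRCm38.p6). Named were Nsd2, the 10 genes, in the other pathway and factor lists those that met the criterion or up to 4 of smallest p, at most 2 of highest CPM per marker list, and for Hes1 and Atoh1 the 5 genes nearest in pattern with at least 1 CPM. Alternatives were run with limma 3.58.1 and DESeq2 1.42.0, other scalings and filters, a replicate block, the Xist settings and each library left out, and 1 (the earlier quasi-likelihood method of edgeR) was added after seeing the data. The test was tried on simulated data. Some genes in the text were named outside the naming rule above, among them Lgr5, Tff3, Spink4, Zg16, Kit, Il25, Ptprc and Cdh5. The genes, lists and alternatives were chosen with earlier results of these data known. Figures were drawn with matplotlib 3.10.9. Intervals on counts cover counting error only.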

Additional observations from a re-analysis of the deposited data

How the results depend on the processing

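The comparison called 482 genes in the 6 libraries. It called 861 with no filter, 1440 with limma-voom and quality weights, 1646 in the 4 libraries without Xist, 1145 with Xist as a covariate, and 323 to 769 with 1 library left out (769 without Vil-KO replicate 2). Of the pathway genes 0 met the criterion, against 1 with no filter (Hey1), 2 with limma-voom (Atoh1, Gfi1), 3 in the 4 libraries without Xist (Dll1, Atoh1, Gfi1), 2 with Xist as a covariate (Dll1, Atoh1), and 0 to 1 with 1 library left out (Gfi1 without f/f replicate 3). Of the other Notch genes 4 were called, against 2 with library size only, 2 with no filter, 6 with limma-voom (also Psen2 and Spen), 5 in the 4 libraries without Xist, and 1 to 4 with 1 library left out (1, Aph1b, without f/f replicate 2 or 3). Of the further secretory factors 0 were called, against 5 with limma-voom (Neurog3, Foxa3, Creb3l1, Creb3l4, Pou2f3), 5 in the 4 libraries without Xist, 2 with Xist as a covariate (Creb3l1, Creb3l4), and 0 to 1 with 1 library left out. Nsd2 changed by −1.16 on the log2 scale, by −1.12 with library size only (no longer meeting the criterion), and by −1.42 to −0.87 with 1 library left out (not meeting the criterion without f/f replicate 1 or 2). Signs turned for Notch2, which was −0.18 and became 0.0243 with the replicate block and 0.0132 with Xist as a covariate (−0.60 to 0.28 with 1 library left out), for Notch1 (−0.15 to 0.51 with 1 library left out) and for Hes1, which was −0.12 and became 0.0760 with limma-voom and 0.12 in the 4 libraries without Xist (−0.28 to 0.14 with 1 library left out). The cause of these changes was not tested.

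Of 389 fold changes of named genes over 17 settings (16 planned and 1 added), 333 kept their sign and their side of the criterion, 32 lost a call, 15 gained one and 9 changed sign. By DESeq2, Aph1b had an adjusted p of 0.0102. Replicate numbers were shared between genotypes, but deviations of libraries with the same number correlated at 0.31, −0.35 and −0.11, so the numbers were not taken as pairs. With the replicate block 303 genes and 2 of the other Notch genes were called.

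At 15439123 to 20350539 counts per library, Hey1 and Notch3 were near the floor, and with 3 libraries a genotype the intervals of the 9 tested pathway genes covered changes of at least 0.5 on the log2 scale in some direction.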

Other observations

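Notch4, a receptor that is known from endothelium, had more counts per length than Notch1 in every library. It had 773, 538 and 178 counts in f/f and 613, 1045 and 710 in Vil-KO. That is 4.75, 3.94 and 1.78 CPM per kb of exon in f/f and 3.71, 7.19 and 4.50 CPM per kb in Vil-KO, where Notch1 had 1.49, 1.41 and 0.50 in f/f and 1.51, 0.66 and 1.71 in Vil-KO. The 10 endothelial markers summed to 8.32, 6.68 and 5.74 CPM in f/f and 7.46, 7.05 and 8.33 CPM in Vil-KO. Of these, Vwf rose by the criterion, with 52, 49 and 23 counts in f/f and 74, 85 and 126 in Vil-KO, Pecam1 fell, with 48, 27 and 34 in f/f and 32, 9 and 11 in Vil-KO, and Cdh5 and Tie1 had at most 6 each. Vwf alone gave 2.58, 2.90 and 1.86 CPM of these sums in f/f and 3.61, 4.72 and 6.44 CPM in Vil-KO. The part of endothelium in the Notch4 counts was not tested. The annotation gives no other gene whose exons overlap those of Notch4. Notch4 did not meet the criterion (log2 fold change 0.55 ± 0.40, SE, 95% interval −0.40 to 1.501), and it was singled out after its values had been seen.

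Vil-KO replicate 2 was the library lowest in Dll1 (2.88 CPM), Lgr5 (2 counts) and Myb (6.77 CPM). It was the highest in the granulocyte genes S100a8 (573.9 CPM) and S100a9 (404.9 CPM), in which f/f replicate 1 had 197.4 and 357.3 CPM. It was the highest in Avil (30.4 CPM) too. Ptprc was at 5.71 CPM there, close to its 5.74 CPM in f/f replicate 3. Hes1 was at 81.8 CPM in Vil-KO replicate 2, inside the range of the other libraries.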
